A study of Homo sapiens with 4 samples.

Results

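The tumour suppressor p53 is a transcription factor that binds DNA at response elements and switches on genes for growth arrest, DNA repair, cell death and metabolism. Here 29 genes were followed in the ovarian cancer line Hey-A8: MDM2, its paralog MDM4 and other genes known as p53 targets or p53 regulators. They were chosen by gene symbol with earlier results of these data known. All 29 were found among the 58735 genes of the count table. MDM2 is both a target and the ubiquitin ligase that marks p53 for destruction, so the pathway forms a negative feedback loop. Many of these genes also answer to factors other than p53. GADD45A and GDF15, for example, are induced by amino acid and endoplasmic reticulum stress as well.

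RNA was sequenced from 2 shCON libraries, which carried a control hairpin, and 2 shSPTLC2 libraries, labelled as a knockdown of SPTLC2, a catalytic subunit of serine palmitoyltransferase. Titles and design text describe stable lines, whereas the treatment protocol describes plasmids with hairpins against ZDHHC15, transfected transiently and harvested at 36 h, and the groups used here follow the titles. No label says whether a line is 1 clone, whether replicates are separate cultures, or what state p53 protein was in. All p-values therefore measure only the spread between these libraries, which may be technical.

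Total counts ran from 14464784 to 15084966 per library. SPTLC2 had 871 and 884 counts in shCON and 587 and 662 in shSPTLC2, a log2 fold change of -0.52 ± 0.12 (SE; adjusted p = 0.0063), and it was not called when shSPTLC2 replicate 1 was left out (adjusted p = 0.13) or replicate 2 (0.052). ZDHHC15 had 0 counts in every library, which allows up to 0.195 to 0.206 CPM. Keratin genes KRT7, KRT8 and KRT18 and the Mullerian factor gene PAX8 were abundant (mean FPKM of 148, 178, 148 and 50.5), while the ovarian cancer marker MUC16 had at most 1 count, EPCAM at most 10 and CDH1 0. PAX8 rose (0.73 ± 0.11, adjusted p = 4.4e-04). Summed FPKM of the 4 mesenchymal markers VIM, CDH2, FN1 and ZEB1 was 925 to 1096, above the 480.3 to 560.3 of the 8 epithelial and Mullerian markers. That order rests on VIM, with a mean of 858 FPKM, while FN1, CDH2 and ZEB1 had means of 83.9, 27.5 and 13.1. Summed FPKM of 4 endothelial markers was 9.95 and 9.60 in shCON and 17.9 and 21.5 in shSPTLC2. CDH5, the endothelial cadherin gene, made up most of that sum and rose (1.09 ± 0.12, adjusted p = 3.7e-05), while PECAM1 had 31 and 27 counts in shCON and 6 and 12 in shSPTLC2, and KDR and VWF had at most 22 counts. Summed FPKM of 5 leukocyte markers stayed at 0.125 to 0.257 and of 4 fibroblast markers at 0.0751 to 0.104. Counts from the mitochondrial genome made up 5.46% and 6.39% of the shCON libraries and 10.1% and 8.56% of the shSPTLC2 libraries, and the part of these differences in the results was not tested.

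Some p53 targets carry a response element close to their start. The best matches near the starts of the members are shown so that the changes of these genes can be read beside the sequence p53 recognises. The element consists of 2 copies of a 10-base half-site whose consensus is its own reverse complement, so that 1 search covers both strands. RefSeq promoter windows (GRCh38.p14, 250 bases before to 50 bases after the start) were present for 24 of the 29 genes and not for FBXO22, GADD45A, PHLDA3, RRM2B and TP53INP1. Pairs of half-sites with a spacer of at most 13 bases were scored by their matches to the p53 consensus, with C required at the fourth base and G at the seventh of each copy. A score of at least 18 of 20 was found in 2 of 24 member windows (8.33%) and in 2.94% of all 27305 windows. At 17 of 20 the shares were 5 of 24 (20.8%) and 12.7%, and an exact half-site lay in 3 of 24 (12.5%) and 6.54%. The 4 genes with at least 17 matches before the start are printed 5′ to 3′ on the gene's strand, with consensus matches in capitals and mismatches, spacer and flanks in lower case. Each stretch lies in the 5′ untranslated exon of a longer transcript in GENCODE 29.
AEN (chr15:88621301-88621330, plus strand, 18 of 20 matches): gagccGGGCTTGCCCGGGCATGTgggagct
FDXR (chr17:74872996-74873025, minus strand, 18 of 20 matches): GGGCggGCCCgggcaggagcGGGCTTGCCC
PLK2 (chr5:58460214-58460242, minus strand, 17 of 20 matches): AAGCgAGaCCcgggtggcgGGACAAGaCT
ZMAT3 (chr3:179071865-179071894, minus strand, 17 of 20 matches): ccGGGCcTGCTCcgccaaGcACATGCgCag
The AEN and FDXR stretches hold the same 10 bases, GGGCTTGCCC, as an exact half-site. The exact half-site of PLK2 begins at base -132 relative to the start and runs past the end of the printed PLK2 stretch. A match is a description of letters and not evidence of binding, and elements farther away or in introns were outside these windows.

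The comparison of shSPTLC2 with shCON asks how transcripts of the p53 network differ between cells with the SPTLC2 hairpin and cells with the control hairpin. The 29 genes did not move together. BTG2, PIDD1, TP53INP1, MDM4, FDXR, PPM1D and MDM2 rose, XPC, GADD45A, E2F7 and AEN fell, and 18 were not called at an adjusted p under 0.05 (quasi-likelihood test of edgeR, Benjamini-Hochberg adjustment over all tested genes). These 11 calls are 37.9% of the 29 genes, beside 19.4% of the 15313 genes tested. The direction shares over all genes were 10.4% higher and 9.0% lower. Because the members were chosen with earlier results of these data known, the larger share is no test of the set. The members were also more abundant than the tested genes at large, with a median of 56.2 CPM (counts relative to the TMM-scaled library size) beside 19.6, and had smaller errors, with a median SE of 0.12 beside 0.15. Their median log2 fold change was 0.20, beside 0.0049 for all tested genes. It was 0.25 with library totals in place of TMM, beside 0.059 for all tested genes. With an offset for GC content it was 0.12, beside -0.022. Both shSPTLC2 libraries lay beyond both shCON libraries for 22 of the 29 genes, beside 61.5% of all genes tested: above them for 16 (31.3% of all genes) and below them for 6 (30.2%). With library totals the split over all genes was 1927 higher and 1032 lower, against 1593 and 1378, and over the members 7 and 3. In bulk RNA, a change in every cell and a change in the share of cells that express a gene cannot be told apart.

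**Figure D1:**
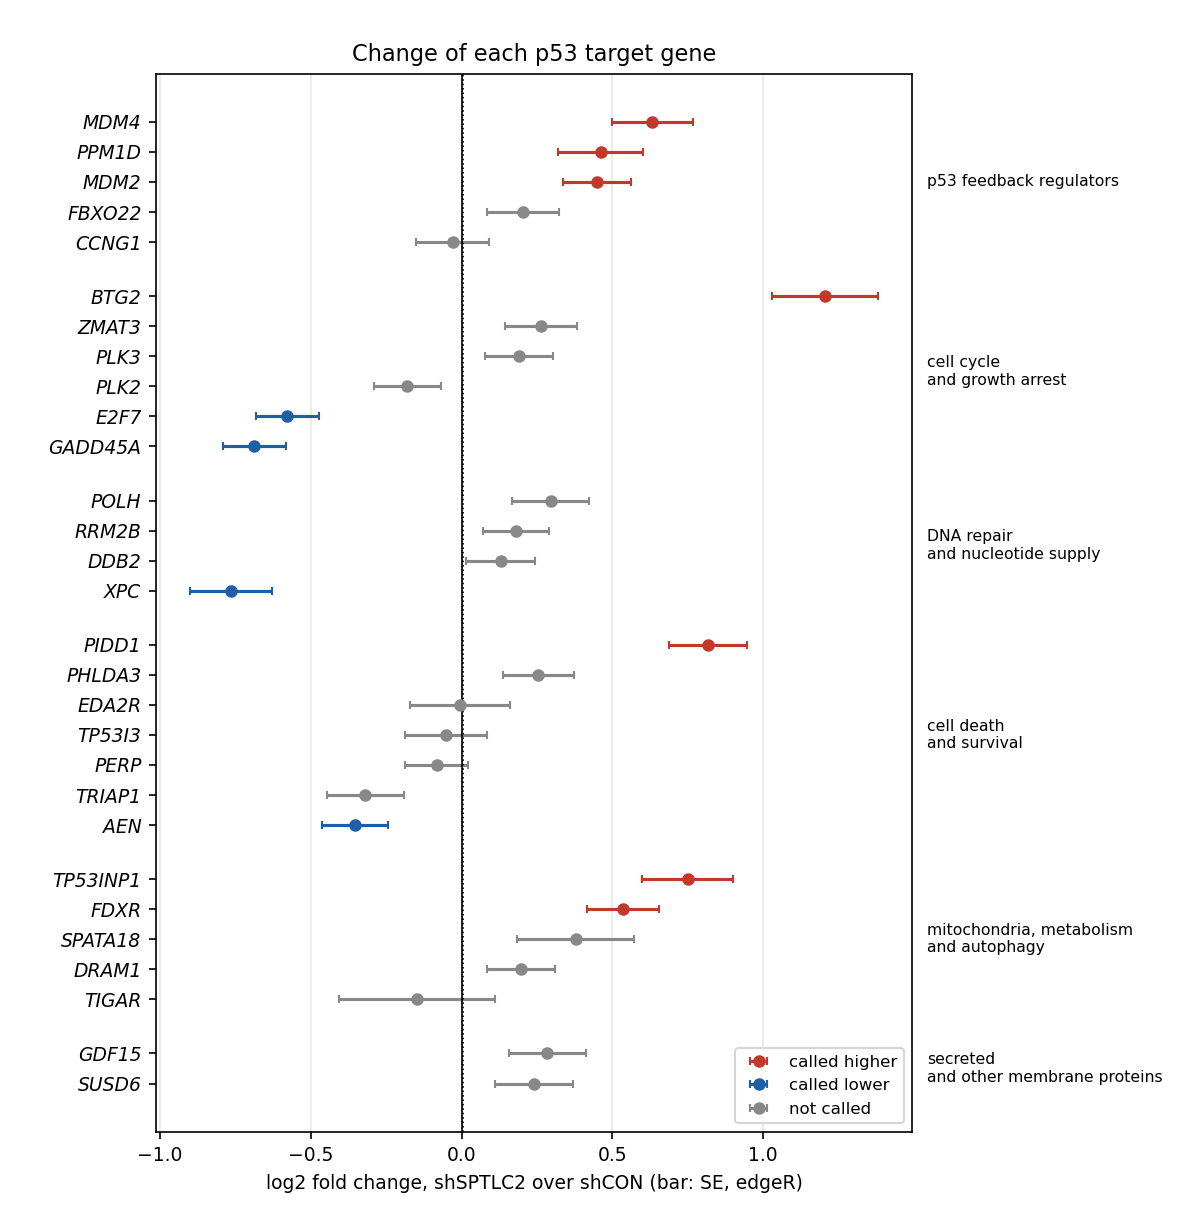
Log2 fold change of each of the 29 genes, shSPTLC2 over shCON, on the x axis, grouped by role, with SE bars from edgeR; the dotted line is the median of all tested genes. Red points (7) were called higher, blue points (4) lower and grey points (18) were not called, and most role groups hold points on either side of 0.

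Levels between the genes were compared as FPKM, which is per length. PLK2, a stress-induced polo-like kinase gene, had the highest mean over the 4 libraries (189 FPKM), followed by GADD45A (115) and CCNG1 (56.7). TIGAR (1.05 FPKM), SPATA18 (2.76) and FBXO22 (4.21) had the lowest. The highest mean was 181 times the lowest. A low FPKM need not mean few reads: FBXO22 has a gene length of 11837 bases and had 45.5 to 56.4 CPM. The median of all tested genes was 19.6 CPM. PLK2 alone took 25.9 to 29.9% of all counts of the 29 genes. The summed level of the 29 genes was 3318 and 3208 CPM under shCON and 3120.4 and 3313 CPM under shSPTLC2; here and below, pairs of values are replicate 1 and replicate 2. The groups overlapped in this sum.

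**Figure D2:**
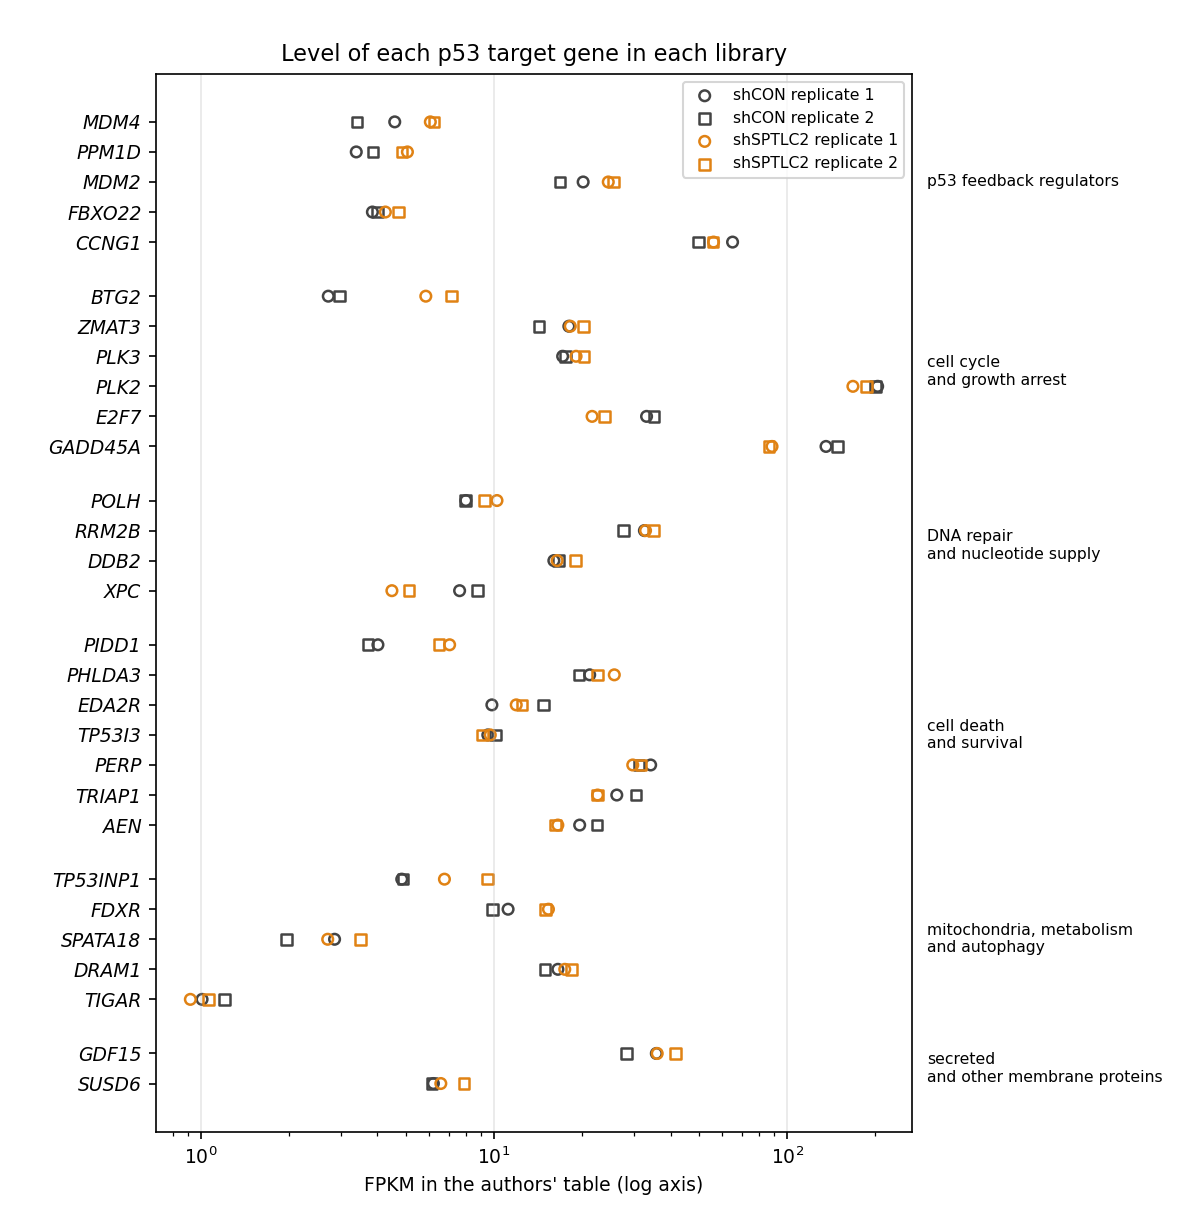
FPKM of the 29 genes in each library on a log axis, from the authors' table, grouped by role; grey symbols are shCON, orange symbols shSPTLC2, circles replicate 1 and squares replicate 2. BTG2, PIDD1, GADD45A and XPC show orange symbols clear of the grey ones, whereas for CCNG1 and EDA2R the orange symbols lie between the grey ones.

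Of the 5 feedback regulators of p53, MDM4, PPM1D and MDM2 rose, and CCNG1 and FBXO22 were not called. MDM2 (ENSG00000135679, hg38 chromosome 12, 68808176 to 68850686) had 267 and 225 CPM under shCON and 329.8 and 342 CPM under shSPTLC2. Its shSPTLC2 libraries were close together and above both controls, with a log2 fold change of 0.45 ± 0.11 (here and below, the error is the SE; adjusted p = 0.011). MDM4 (ENSG00000198625, hg38 chromosome 1, 204516379 to 204558120), which encodes an MDM2-related protein that binds p53 and blocks its activity, had 50.4 and 37.8 CPM under shCON and 67.5 and 69.3 CPM under shSPTLC2. The shCON libraries differed more from each other than the shSPTLC2 libraries did, yet the groups did not overlap, and MDM4 rose by 0.63 ± 0.14 on the log2 scale (adjusted p = 0.0046). PPM1D (ENSG00000170836, hg38 chromosome 17, 60600183 to 60666280) encodes the phosphatase WIP1, which removes activating phosphates from p53 and from the checkpoint kinases. It had 17.1 and 19.6 CPM under shCON and 25.8 and 24.7 CPM under shSPTLC2 and rose by 0.46 ± 0.14 (adjusted p = 0.031). CCNG1, the cyclin G gene that acts with MDM2, had 201 and 156 CPM under shCON and 176 and 174 CPM under shSPTLC2, with both shSPTLC2 values between the controls (-0.029 ± 0.12). FBXO22, an F-box gene of a ubiquitin ligase, had 45.5 and 47.8 CPM under shCON and 51.01 and 56.4 CPM under shSPTLC2 (0.20 ± 0.12). There were 4.39 and 4.92 units of MDM2 FPKM per unit of MDM4 FPKM in the shCON libraries and 4.05 and 4.09 in the shSPTLC2 libraries. MDM2 stayed the more abundant of the paralogs in every library.

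The growth arrest genes went both ways, and both the largest rise and 2 of the 4 falls of the 29 genes were among them. BTG2 (ENSG00000159388, hg38 chromosome 1, 203305491 to 203309602), an antiproliferative gene whose product recruits the deadenylase that shortens mRNA tails, had 7.49 and 8.24 CPM under shCON and 16.3 and 19.9 CPM under shSPTLC2. All shSPTLC2 values exceeded the controls, and the log2 fold change was 1.21 ± 0.17 (adjusted p = 3.4e-04), a fold of 2.31. GADD45A (ENSG00000116717, hg38 chromosome 1, 67685061 to 67688338), a growth arrest and DNA damage gene whose product activates stress kinase signalling, had 280.4 and 309.9 CPM under shCON and 186 and 181 CPM under shSPTLC2. The replicates of each group were near each other and the groups were far apart, with a log2 fold change of -0.69 ± 0.11 (adjusted p = 5.1e-04). E2F7 (ENSG00000165891, hg38 chromosome 12, 77021247 to 77065580), an atypical E2F factor that represses cell cycle genes, had 209 and 223 CPM under shCON and 138 and 151 CPM under shSPTLC2 and fell (-0.58 ± 0.11, adjusted p = 0.0018). The other genes of this group were not called. Their libraries did not overlap between groups, which was also so for 61.5% of all tested genes. The kinase gene PLK2 had 969 and 961 CPM under shCON and 809 and 894 CPM under shSPTLC2 (-0.18 ± 0.11, adjusted p = 0.28). Its relative PLK3 had 59.5 and 61.4 CPM under shCON and 67.1 and 71.02 CPM under shSPTLC2 (0.19 ± 0.11), on the opposite side of 0. ZMAT3, which encodes an RNA-binding protein that alters splicing, had 173 and 138 CPM under shCON and 178 and 196 CPM under shSPTLC2 (0.26 ± 0.12, adjusted p = 0.14).

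Of the DNA repair and nucleotide supply genes, XPC was called and fell, and DDB2, POLH and RRM2B were not called. XPC (ENSG00000154767, hg38 chromosome 3, 14145147 to 14178783) encodes the damage sensor that starts global nucleotide excision repair. It had 36.6 and 42.5 CPM under shCON and 21.8 and 24.8 CPM under shSPTLC2, so that both knockdown-labelled libraries were under both controls, and its log2 fold change was -0.76 ± 0.14 (adjusted p = 0.0015). DDB2, the other damage sensor of the same repair route, had 78.2 and 81.8 CPM under shCON and 81.3 and 93.7 CPM under shSPTLC2 with overlapping groups (0.13 ± 0.11). POLH, the translesion polymerase eta gene, had 28.3 and 28.5 CPM under shCON and 36.7 and 33.1 CPM under shSPTLC2 (0.30 ± 0.13, adjusted p = 0.12). RRM2B, the p53-induced small subunit of ribonucleotide reductase, had 181 and 155 CPM under shCON and 185 and 195 CPM under shSPTLC2 (0.18 ± 0.11, adjusted p = 0.27). These 3 log2 fold changes lay above 0 while that of XPC lay below it.

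Among the cell death genes, PIDD1 rose and AEN fell. PIDD1 (ENSG00000177595, hg38 chromosome 11, 799179 to 809753), the scaffold of the PIDDosome that activates caspase-2, had 23.5 and 21.97 CPM under shCON and 41.9 and 38.4 CPM under shSPTLC2. The groups were well apart and the log2 fold change was 0.82 ± 0.13 (adjusted p = 6.4e-04). AEN (ENSG00000181026, hg38 chromosome 15, 88621296 to 88632282), an exonuclease that fragments DNA in apoptosis, had 118 and 136 CPM under shCON and 101 and 98.2 CPM under shSPTLC2. The shSPTLC2 values nearly coincided and lay under both controls, with a log2 fold change of -0.35 ± 0.11 (adjusted p = 0.035). TRIAP1, a small survival factor that moves lipids within mitochondria, was not called and had 37.8 and 44.3 CPM under shCON and 32.9 and 32.8 CPM under shSPTLC2 (-0.32 ± 0.13, adjusted p = 0.094). PHLDA3, a pleckstrin-homology protein gene whose product competes with AKT for membrane lipids, was not called and had 66.4 and 61.6 CPM under shCON and 81.7 and 71.2 CPM under shSPTLC2 (0.26 ± 0.12, adjusted p = 0.14). The AKT pathway is the one named in the series title. EDA2R, a TNF receptor family gene, had the most unequal controls of the 29 genes, with 35.1 and 53.2 CPM under shCON and 43.1 and 44.9 CPM under shSPTLC2, and its shSPTLC2 values lay between them (-0.0048 ± 0.17). PERP, a membrane protein gene of desmosomes, had 147 and 135 CPM under shCON and 129 and 137 CPM under shSPTLC2 (-0.082 ± 0.11). TP53I3, a quinone oxidoreductase gene, had 21.98 and 23.6 CPM under shCON and 22.7 and 21.3 CPM under shSPTLC2 (-0.051 ± 0.14). Neither was called, and the groups overlapped in both.

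Of the genes for mitochondria, metabolism and autophagy, TP53INP1 and FDXR rose. TP53INP1 (ENSG00000164938, hg38 chromosome 8, 94925972 to 94949411), which encodes a nuclear and autophagosomal stress protein, had 27.4 and 28.01 CPM under shCON and 38.9 and 54.3 CPM under shSPTLC2. The controls were nearly equal and the shSPTLC2 libraries differed from each other, with a log2 fold change of 0.75 ± 0.15 (adjusted p = 0.0033). FDXR (ENSG00000161513, hg38 chromosome 17, 74862497 to 74873031), the mitochondrial ferredoxin reductase, had 40.1 and 35.9 CPM under shCON and 55.8 and 54.4 CPM under shSPTLC2. Its shSPTLC2 values were close together and above the controls (0.54 ± 0.12, adjusted p = 0.0064). SPATA18, a gene of mitochondrial quality control, was not called, had 14.1 and 9.75 CPM under shCON and 13.5 and 17.5 CPM under shSPTLC2 and overlapped between groups (0.38 ± 0.19, adjusted p = 0.19). DRAM1, a lysosomal autophagy gene, was not called, with 68.9 and 62.9 CPM under shCON and 73.7 and 77.5 CPM under shSPTLC2 (0.20 ± 0.11). TIGAR, a phosphatase gene that lowers glycolytic flux, had only 60 and 71 counts in shCON and 55 and 66 in shSPTLC2, and its difference had a wide error (-0.15 ± 0.26).

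Neither of the remaining genes was called. GDF15, a secreted stress cytokine of the TGF-beta family, had 74.6 and 59.6 CPM under shCON and 76.1 and 87.4 CPM under shSPTLC2 (0.28 ± 0.13, adjusted p = 0.13). SUSD6, a membrane protein gene, had 36.1 and 36.04 CPM under shCON and 38.8 and 46.5 CPM under shSPTLC2 (0.24 ± 0.13, adjusted p = 0.21). In both genes the shSPTLC2 libraries lay above both controls, as they did for 31.3% of all tested genes. The margin of GDF15 over shCON replicate 1 was small.

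BTG2, PIDD1 and GADD45A were called under all 11 alternative settings, including the removal of each library in turn. Beside each loss of a call, the range of the adjusted p over the 11 settings follows its value. E2F7 lost its call without shSPTLC2 replicate 1 (adjusted p = 0.085; 1.7e-07 to 0.085), as did XPC (0.061; 7.2e-08 to 0.061). TP53INP1 was not called without shSPTLC2 replicate 2, where its log2 fold change was 0.49 (0.10; 2.3e-06 to 0.10). MDM2 lost its call without shSPTLC2 replicate 1 or 2 (adjusted p = 0.12 and 0.13; 4.6e-06 to 0.13), as did MDM4 (0.074 and 0.064; 4.0e-08 to 0.074) and FDXR (0.10 and 0.061; 2.2e-04 to 0.10). PPM1D was not called without shSPTLC2 replicate 1 or 2 (0.22 and 0.13), without shCON replicate 1 (0.097) or by DESeq2 (0.11; 0.0068 to 0.22). AEN was not called without shSPTLC2 replicate 1 or 2 (0.22 and 0.23), without shCON replicate 2 (0.11) or with library totals (0.072; 5.0e-04 to 0.23). FDXR and AEN were also not called with the replicate block and the GC-content offset together. Over these 11 genes and 11 settings, no log2 fold change crossed 0. The members called numbered 3 higher and 1 lower without shSPTLC2 replicate 1, and 2 higher and 3 lower without shSPTLC2 replicate 2. Over all genes the calls fell in those fits as well, to 3.97% and 6.17% of genes tested.

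**Figure D3:**
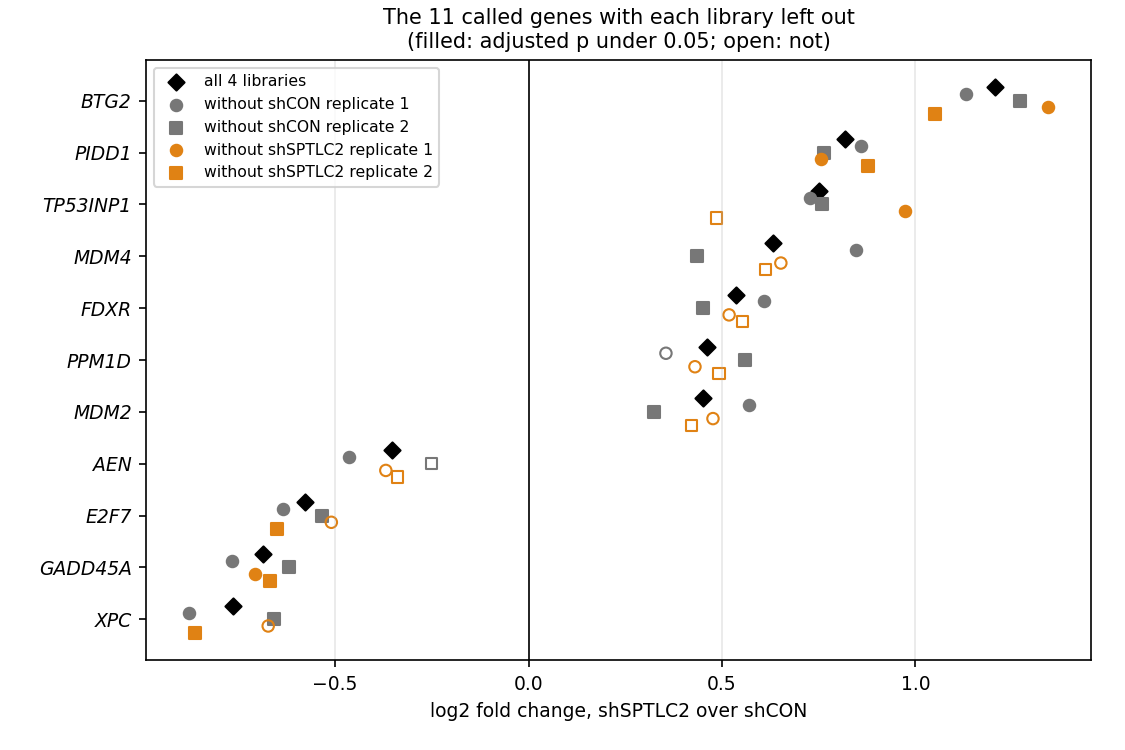
Log2 fold change (x axis) of the 11 called genes with all 4 libraries (diamonds) and with each library left out; filled symbols have an adjusted p under 0.05 and open symbols do not. Every symbol of a gene stays on one side of 0, while only BTG2, PIDD1 and GADD45A are filled throughout.

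The 2 control libraries were themselves unequal for part of the set. In 7 members shCON replicate 1 exceeded replicate 2 by more than 0.2 on the log2 scale, and in 6 it was lower by more than 0.2. These 13 genes are 44.8% of the members, beside 48.2% of all genes tested. EDA2R (-0.60, replicate 1 over replicate 2), SPATA18 (0.53), MDM4 (0.41), CCNG1 (0.37), ZMAT3 (0.33) and GDF15 (0.32) differed most. Without shCON replicate 1, the p53 targets GDF15 (log2 fold change 0.45, adjusted p = 0.0035; 0.0035 to 0.78 over the alternatives), SPATA18 (0.66, 0.0065; 0.0065 to 0.72), ZMAT3 (0.43, 0.0014; 0.0014 to 0.57) and RRM2B (0.29, 0.042; 0.042 to 0.73) were called higher, and TRIAP1 was called lower (-0.44, 0.012; 0.012 to 0.35). A larger share of all tested genes was also called in that fit than with all libraries, so the added calls are not particular to the members. In the shSPTLC2 group, replicate 2 exceeded replicate 1 in 19 of 29 members (65.5%), beside 50.003% of all genes tested. These 2 libraries differed by more than 0.2 on the log2 scale in 5 members (17.2%), beside 38.6% of all genes tested.

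Transcript GC content moved with the comparison over all genes, and it differed widely between the members. The tested genes were cut into 5 equal bins of GC content. In the highest bin (57.7 to 83.9% GC) 20.02% were called higher and 5.00% lower, with a median log2 fold change of 0.17, whereas in the middle bin 7.09% were higher and 12.1% lower, with a median of -0.075. PIDD1 (66.04% GC) and FDXR (61.8%) were the members called in the highest bin, both higher. With a GC-content offset per library, PIDD1 changed by 0.51 (adjusted p = 0.010; 4.7e-07 to 0.033 over the alternatives) and FDXR by 0.34 (0.049). TP53INP1 (39.6%), MDM2 (41.9%) and MDM4 (42.4%) rose, and the medians of their bins were 0.014 and -0.067. GADD45A (51.5%) and XPC (52.5%) fell, and the median of their bin was -0.014. E2F7 (43.1%) and AEN (50.8%) fell, and the medians of their bins were -0.067 and -0.075. In these same bins PPM1D (45.1%) and BTG2 (50.3%) rose. The uncalled members of the highest bin moved as well: with the offset GDF15 stood at 0.063 (0.28 ± 0.13 without it), PLK3 at 0.014 (0.19 ± 0.11), PHLDA3 at 0.12 (0.26 ± 0.12) and TP53I3 at -0.16 (-0.051 ± 0.14). All 11 members called without the offset were called with it. With the replicate block added to the offset, FDXR and AEN were not called.

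**Figure D4:**
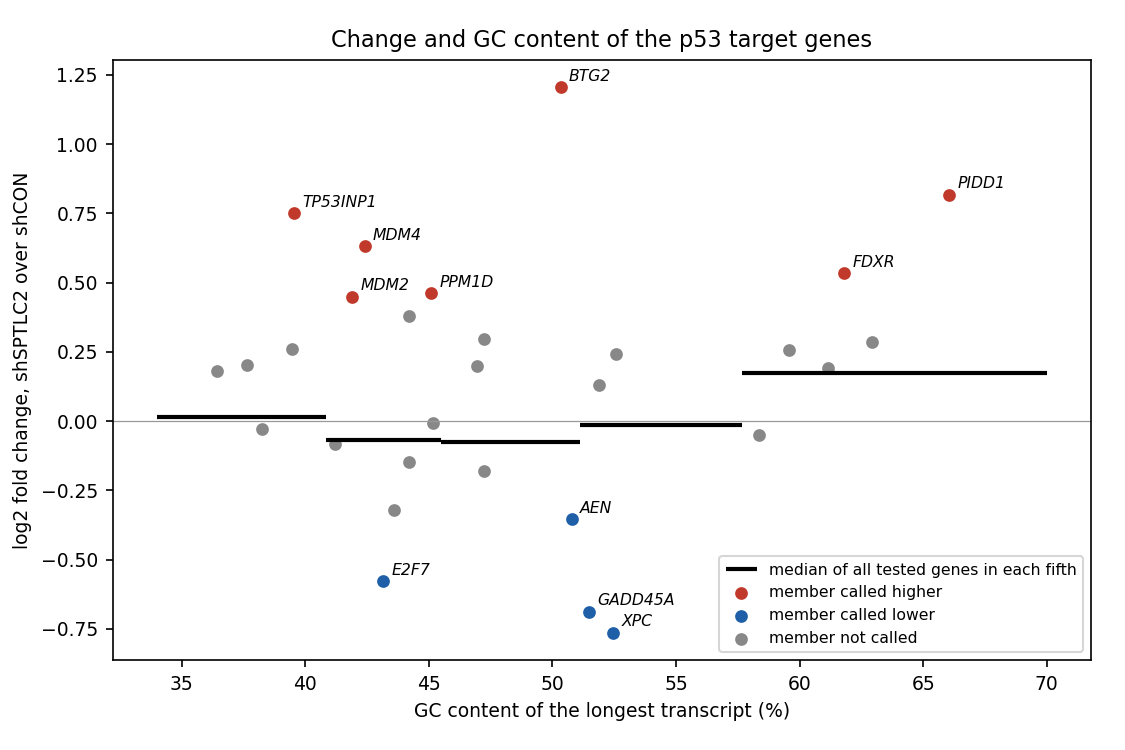
Log2 fold change (y axis) of the 29 genes against the GC content of their longest GENCODE transcript in percent (x axis); black bars are the medians of all tested genes in 5 equal bins of GC content, drawn between 34 and 70%. Of the called genes, BTG2, MDM2, MDM4, TP53INP1, PPM1D, PIDD1 and FDXR sit above their bars, and GADD45A, XPC, E2F7 and AEN sit below theirs.

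No source used here gives the strand setting of the counting. Reads of genes that overlap on opposite strands therefore cannot be told apart. PIDD1 shares 107 exon bases with RPLP2, a far more abundant ribosomal gene that had 554 and 632 CPM under shCON and 599 and 572 CPM under shSPTLC2 (-0.018 ± 0.11). XPC shares 318 exon bases with LSM3 (33.2 and 49.5 CPM under shCON and 34.3 and 29.7 CPM under shSPTLC2; -0.37 ± 0.17, adjusted p = 0.15) and 1140 with the antisense gene AC093495.1, whose counts summed to 9.94% of those of XPC. TP53INP1 overlaps NDUFAF6 with 0 shared exon bases, and POLH overlaps GTPBP2 with 4. The overlapping genes RPLP2, LSM3, NDUFAF6 and GTPBP2 were not called. The part of overlapping reads in these results was not tested.

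Of 32 further p53 targets 30 were tested, of which 3 rose, 4 fell and 23 were not called, with a median log2 fold change of 0.045. The called share of 23.3% was near the 19.4% of all tested genes (10.4% higher and 9.0% lower). The leucine sensor and stress gene SESN2 had 182 and 185 CPM under shCON and 69.98 and 66.1 CPM under shSPTLC2 and fell (-1.43 ± 0.11, adjusted p = 1.5e-06). PMAIP1, which encodes the BH3-only death protein NOXA, had 166 and 152 CPM under shCON and 83.6 and 84.4 CPM under shSPTLC2 and fell (-0.92 ± 0.11, adjusted p = 6.0e-05). NINJ1, which encodes a membrane protein that ruptures dying cells, had 17.8 and 16.2 CPM under shCON and 25.2 and 28.6 CPM under shSPTLC2 and rose (0.66 ± 0.14, adjusted p = 0.0047), and the matrix gene THBS1 rose too (0.52 ± 0.11, adjusted p = 0.0047). SESN2 and PMAIP1 were called under all 11 alternatives. NINJ1 was not called without shSPTLC2 replicate 2 (0.086; 1.9e-04 to 0.086), nor THBS1 without shSPTLC2 replicate 1 or 2 (0.066 and 0.089; 2.7e-06 to 0.089). Without shCON replicate 1, more calls were made in both directions, among these targets and over all tested genes. The median log2 fold change of these targets was then 0.038. Without shSPTLC2 replicate 2, edgeR called 0 higher and 2 lower (2 and 6 at an unadjusted p under 0.05; DESeq2 on all libraries called 3 and 4).

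Of 23 genes upstream of p53 or acting with it, 20 were tested, 4 rose, 5 fell and 11 were not called, with a median log2 fold change of -0.089. The called share was 45.0%, beside 19.4% of all tested genes (10.4% higher and 9.0% lower). This list, too, was chosen with earlier results known, so the share is no test of it. Its median SE was 0.13, beside 0.15 for all tested genes. PPP1R13L, which encodes iASPP, an inhibitor of p53, had 53.7 and 41.05 CPM under shCON and 99.97 and 99.95 CPM under shSPTLC2 and rose (1.08 ± 0.13, adjusted p = 8.1e-05), and it was called under all 11 alternatives. The acetyltransferase genes KAT5 (-0.80 ± 0.15, adjusted p = 0.0026) and CREBBP (-0.49 ± 0.11, 0.0049) and the p53 kinase gene HIPK2 (-0.49 ± 0.11, 0.0071) fell. Ribosomal protein genes RPL5 (-0.36 ± 0.11, adjusted p = 0.034) and RPL11 (-0.45 ± 0.14, 0.035), whose free proteins bind MDM2, fell as well and were the most abundant of the list at 296 and 224 FPKM. The control libraries of RPL11 were unequal, at 576 and 811 CPM. RPL11 was not called in 6 of the 11 alternatives, the GC-content offset among them (0.059; 1.3e-09 to 0.26), and its log2 fold change ran from -0.69 to -0.19, and RPL5 was not called in 4 (5.9e-04 to 0.31). CREBBP and HIPK2 were not called without shSPTLC2 replicate 1 (0.11 and 0.15; 1.4e-05 to 0.11 and 3.9e-06 to 0.15) or replicate 2 (0.070 and 0.063), nor KAT5 without shSPTLC2 replicate 1 (0.056; 2.3e-05 to 0.056). Without shSPTLC2 replicate 1, edgeR called 1 of these genes higher and 0 lower (4 and 4 at an unadjusted p under 0.05; DESeq2 on all libraries called 2 and 5), and without shSPTLC2 replicate 2 it called 1 and 1.

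Cell cycle genes bound by the DREAM repressor complex form another list of the pathway. Of 14 such genes 1 rose, 4 fell and 9 were not called, with a median log2 fold change of -0.22, beside 0.0049 for all tested genes. The called share was 35.7%, beside 19.4% of all tested genes (10.4% higher and 9.0% lower). This list was likewise chosen with earlier results known, so the share is no test of it. Its median SE was 0.12, beside 0.15 for all tested genes. Values lay below 0 for 13 of the 14 genes and for 7583 of all 15313. The controls also differed in 1 direction here: shCON replicate 1 exceeded replicate 2 in 12 of the 14 genes (85.7%), beside 49.5% of all tested genes. The median of the list was -0.17 without shCON replicate 1 and -0.29 without shCON replicate 2. The mitotic cyclin genes CCNB1 (255 and 234 CPM under shCON and 170.1 and 162 CPM under shSPTLC2; -0.56 ± 0.10, adjusted p = 0.0020) and CCNB2 (-0.53 ± 0.12, 0.0052) fell, as did BIRC5, the survivin gene (-0.44 ± 0.12, 0.016). MYBL2, a cell cycle transcription factor gene of the same list, rose (0.48 ± 0.12, adjusted p = 0.010). CDC20, the mitotic ubiquitin ligase activator gene and the most abundant of the list at 151 FPKM, was not called (-0.078 ± 0.11). CCNB1 and BIRC5 were not called without shSPTLC2 replicate 1 (0.056 and 0.061; 3.0e-07 to 0.059 and 5.6e-05 to 0.26) or replicate 2 (0.059 and 0.26), nor CCNB2 without shSPTLC2 replicate 1 (0.14; 7.1e-05 to 0.14). MYBL2 was not called without shSPTLC2 replicate 1 (0.20) or with the GC-content offset, where it stood at 0.32 (0.060; 8.3e-06 to 0.20). Without shSPTLC2 replicate 1, edgeR called 0 of the 14 genes higher and 0 lower (1 and 3 at an unadjusted p under 0.05; DESeq2 on all libraries called 1 and 4), and without shSPTLC2 replicate 2 it called 1 and 1.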

How the data were processed

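The authors deposited raw read counts and FPKM values per gene for 4 libraries of Hey-A8 cells, with gene symbols and hg38 coordinates, which matched GENCODE 29 for all 58735 genes. Per the submitters' processing notes, HISAT2, StringTie, SAMtools and hg38 were used; the counting program is not given in the sources used here. Per the labels' protocols, the kit was NEBNext Ultra RNA.

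Deposited counts were tested in R 4.3.3 with edgeR 4.0.16: filterByExpr (minimum count 10, minimum total 15), TMM scaling, a robust quasi-likelihood fit without covariates, a two-sided F test and Benjamini-Hochberg adjustment over 15313 genes. All 29 members passed the filter. An SE is the size of the log2 fold change divided by the square root of F. CPM are TMM-scaled, and the authors' FPKM were used only for levels between genes. Alternatives were DESeq2 1.42.0, its size factors, library totals, no filter, a loess GC-content offset (span 0.3), the replicate number as a block, and each library left out, where the lone library of a group is assumed to vary like the other group. The floor for 0 counts is 3 counts, and it covers counting error only.

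The members and lists were chosen with earlier results of these data known. All members are named, and of each further list up to 4 called genes with the smallest adjusted p and 2 with the highest mean FPKM, less 2 genes not reported here. Promoter windows are from RefSeq, GRCh38.p14.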

Additional observations from a re-analysis of the deposited data

How the results depend on the processing

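Each of the 29 genes was refitted under 11 alternatives. Of the 319 resulting values, 286 kept direction and side of the threshold, 19 lost a call, 5 gained one and 9 changed sign. The sign changes were in genes that were not called in any fit: CCNG1 with library totals (0.024) and, of -0.21 to 0.16 with a library left out, without shCON replicate 1, TP53I3 with library totals (0.0041), and EDA2R with library totals (0.052), the GC-content offset (0.064), the replicate block (0.020), the block with the offset (0.086), and, of -0.28 to 0.32 with a library left out, without shCON replicate 2 and without shSPTLC2 replicate 1 (0.025). DESeq2 called 972 genes higher and 1006 lower over the whole table, with 6 and 4 members, and 2 upstream genes higher. Upstream genes called lower numbered 3 with library totals and 3 under the block with the offset. With the offset, edgeR called 0 DREAM genes higher (1 at an unadjusted p under 0.05; DESeq2 called 1). Leaving out a library gave 413 to 1977 genes called higher and 227 to 2050 lower; 2 to 10 members higher and 1 to 5 lower; 0 to 5 other p53 targets higher and 2 to 8 lower; 1 to 4 upstream genes higher and 0 to 6 lower; and 0 to 1 DREAM genes higher and 0 to 6 lower. In edgeR, the counts of 0 had 2 other targets higher (without shSPTLC2 replicate 2), and 4 upstream genes lower, 1 DREAM gene higher and 3 lower (without shSPTLC2 replicate 1), at an unadjusted p under 0.05. SPTLC2 changed by -0.47 and -0.58 without shSPTLC2 replicates 1 and 2. The cause of these shifts was not tested.

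With the replicate number as a block, 7 members were higher and 4 lower, the same genes as without it, among 1776 and 1531 genes, and 6 and 3 under the block with the offset, where FDXR (adjusted p = 0.053) and AEN (0.064) were not called. Deviations of same-numbered libraries had a correlation of -0.013 over genes, so the numbers are not shown to pair the libraries.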
